A study of Mus musculus with 6 samples.

Results

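The antioxidant genes described here are 35 genes for the transcription factor NRF2 and its adaptor KEAP1, for the thioredoxin, peroxiredoxin and glutathione systems, and for superoxide, haem and quinone enzymes. They were taken by gene symbol from a table of read counts for 54532 genes, where each of the 35 had a row, and all 35 passed the filter on low counts that left 12873 genes for testing. The libraries, 3 in each of 2 groups, held RNA of T helper 17 (Th17) cells, a CD4 T cell type that makes interleukin 17, after 4 days of culture. The GOT1-/- group came from mice that lack GOT1, the cytosolic aspartate transaminase, in T cells, and the WT group from C57BL/6 wild-type mice. The labels give C57BL/6 as the strain of every library, do not name the driver of the T cell deletion, and give ages of 6 to 10 weeks and either sex for the mice. Cells of both groups were sorted as naive CD4 T cells, activated through CD3 and CD28, and given TGF-beta, IL-1beta, IL-6 and IL-23 with antibodies against interferon gamma and IL-4. The labels do not say whether the 3 libraries of a genotype came from separate animals, so the p-values cover only the spread between these libraries, and that spread may be technical.

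Cells remove hydrogen peroxide mainly by thiol chemistry. Peroxiredoxins are oxidised by peroxide and reduced again by thioredoxin, which thioredoxin reductase recharges with electrons from NADPH, while glutathione peroxidases use glutathione, which glutathione reductase recharges in the same way. NRF2 (gene Nfe2l2) switches on many of these genes through antioxidant response elements in DNA and is held in check by KEAP1, which marks it for degradation when cells are not under oxidative stress. Activated T cells need both thiol systems for growth, and NRF2 is controlled largely at the protein level, which RNA counts do not show.

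Promoters of 4 members are shown because they match TGACNNNGC, a core form of the antioxidant response element, and belong to genes with different outcomes. Srxn1 and Txnrd1 rose in GOT1-/- cells, Nfe2l2 itself fell, and Gclm did not pass the test. Each sequence is from RefSeq (GRCm38.p6), is read 5′ to 3′ on the gene's strand, and runs from 250 bases before to 50 bases after an annotated start. Capitals mark each match to TGACNNNGC or, on the other strand, GCNNNGTCA. The windows lie at chr2:152105274-152105573 (plus strand), chr10:82858956-82859255 (plus strand), chr3:122245307-122245606 (plus strand) and chr2:75704614-75704913 (minus strand).
Srxn1: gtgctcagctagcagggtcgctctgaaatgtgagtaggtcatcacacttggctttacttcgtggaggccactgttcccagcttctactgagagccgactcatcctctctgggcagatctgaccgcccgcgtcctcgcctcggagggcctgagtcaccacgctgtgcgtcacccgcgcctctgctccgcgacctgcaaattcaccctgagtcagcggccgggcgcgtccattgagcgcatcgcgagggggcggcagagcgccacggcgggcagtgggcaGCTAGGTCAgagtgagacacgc
Txnrd1: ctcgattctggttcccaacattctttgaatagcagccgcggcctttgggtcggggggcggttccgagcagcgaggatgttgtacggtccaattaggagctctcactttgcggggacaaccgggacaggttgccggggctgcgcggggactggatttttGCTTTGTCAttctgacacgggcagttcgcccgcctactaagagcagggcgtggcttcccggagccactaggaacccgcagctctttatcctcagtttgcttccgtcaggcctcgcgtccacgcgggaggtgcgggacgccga
Gclm: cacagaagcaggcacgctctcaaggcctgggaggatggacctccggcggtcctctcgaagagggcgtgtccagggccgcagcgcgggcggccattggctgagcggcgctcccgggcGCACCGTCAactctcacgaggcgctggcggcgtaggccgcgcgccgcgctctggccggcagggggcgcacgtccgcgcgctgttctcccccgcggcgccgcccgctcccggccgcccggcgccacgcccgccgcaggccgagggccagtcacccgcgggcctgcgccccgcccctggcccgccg
Nfe2l2: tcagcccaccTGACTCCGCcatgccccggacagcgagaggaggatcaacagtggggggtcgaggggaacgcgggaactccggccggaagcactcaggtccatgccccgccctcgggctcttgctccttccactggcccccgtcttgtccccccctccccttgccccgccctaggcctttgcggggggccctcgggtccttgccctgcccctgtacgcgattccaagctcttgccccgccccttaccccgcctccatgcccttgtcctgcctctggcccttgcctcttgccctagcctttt

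The match began 28 bases after the start in Srxn1, 92 bases before it in Txnrd1, 134 bases before it in Gclm and 240 bases before it in Nfe2l2. Of the 30 members with a promoter in the table, 7 held a match, namely these 4 with Prdx1, Sod1 and Gstm5. Txnrd1 has 3 annotated starts, of which 1 held it. Among all 27025 genes with a promoter entry 14.0% held a match, and among the 9505 of them that were tested 17.0% did. Matches stood in 3 of 17 members called higher, 1 of 4 called lower and 3 of 9 not called. A match describes these letters in this window and does not show binding. Forms with other fixed letters were not counted, such as the unmarked tgagtcagc in the Srxn1 sequence. A window without a match may therefore hold another form of the element, and a marked match need not be the site in use.

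The libraries held 17557436 to 22541410 counts in GOT1-/- cells and 16463752 to 21239075 in WT cells, and a count of 3, the limit that a count of 0 allows, was worth 0.133 to 0.182 CPM (counts per 1000000, scaled by TMM factors of 0.976 to 1.01). Got1 checked the labels, at 16.03, 15.04 and 17.53 CPM in GOT1-/- replicates 1 to 3 and 166, 165 and 174 CPM in WT replicates 1 to 3, with no overlap (log2 fold change -3.38, adjusted p = 2.15e-14). A gene was called at an adjusted p under 0.05 by the quasi-likelihood test of edgeR, adjusted by Benjamini-Hochberg over all 12873 genes, and every adjusted p below is from that test. The T cell genes Cd4 and Cd3e and the cytokine gene Il17f averaged 641, 272 and 1012 CPM in GOT1-/- cells and 681, 335 and 1075 CPM in WT cells. Of these 3 genes Cd3e was called lower, and Cd4 and Il17f were not called. Of 10 macrophage, monocyte and neutrophil markers 9 were tested, of which 6 were called higher and 1 lower. The summed level of all 10 was 31.8 to 38.2 CPM in GOT1-/- and 26.8 to 28.6 CPM in WT libraries. The sum holds changes in both directions: Lyz2 averaged 12.6 ± 1.69 CPM in GOT1-/- and 4.02 ± 0.77 CPM in WT cells, and Cd68 averaged 11.1 ± 1.18 CPM in GOT1-/- and 19.6 ± 2.08 CPM in WT cells (SD, n = 3 each). The neutrophil genes S100a8 and S100a9 were also called higher, as were Cd14, Fcer1g and Tyrobp, each of these averaging at most 3.58 CPM in GOT1-/- cells. Adgre1, a defining macrophage marker, averaged 0.240 CPM in GOT1-/- and 0.0695 CPM in WT cells and was too low to be tested. Of 6 mast cell and basophil markers 4 were tested, and all 4 were higher. The 6 summed to 12.0 to 12.9 CPM in GOT1-/- and 3.03 to 3.85 CPM in WT libraries. All 3 gamma-delta T cell markers were higher, with sums of 12.3 to 13.6 CPM in GOT1-/- and 5.97 to 6.89 CPM in WT libraries. Markers of CD8 T and NK cells summed to 48.5 to 52.3 CPM in GOT1-/- and 66.0 to 69.9 CPM in WT libraries. Of these 5 genes 3 were tested, of which 1 was lower and none higher. The lower gene was Klrd1, which averaged 36.8 CPM in GOT1-/- and 54.1 CPM in WT cells. Cd8b1 averaged 12.2 CPM in GOT1-/- and 12.7 CPM in WT cells, and Cd8a 1.59 and 0.965 CPM, and neither was called. The 4 B cell markers summed to 2.27 to 3.21 CPM in GOT1-/- and 1.75 to 2.78 CPM in WT libraries. Only 2 of these 4 were tested, and neither was called by edgeR. The 7 erythroid markers, of interest because Prdx2, Cat and Blvrb are abundant in red cells, summed to at most 0.409 CPM in any library, and Hbb-bs and Hba-a2 had no count. The part of the other marker groups in the results below was not tested. In such bulk samples fewer cells of a type and less RNA per cell cannot be told apart.

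Of the 35 antioxidant genes, 18 were higher and 5 lower in GOT1-/- cells, and 12 were not called. Over all genes tested 43.8% were called, 22.9% higher and 21% lower, against 65.7% of the antioxidant genes. Their median log2 fold change (GOT1-/- over WT) was 0.25, beside 0.01 over all genes tested. The levels of the genotypes did not overlap for 24 of the 35, where 53.4% of all genes tested did not overlap. Only Srxn1, Txn1 and Mgst2 were called with a change of at least 1.5-fold, which 14.1% of all genes tested reached. Without GOT1-/- replicate 1, or without WT replicate 2, 3 members in place of 5 were lower.

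**Figure D1:**
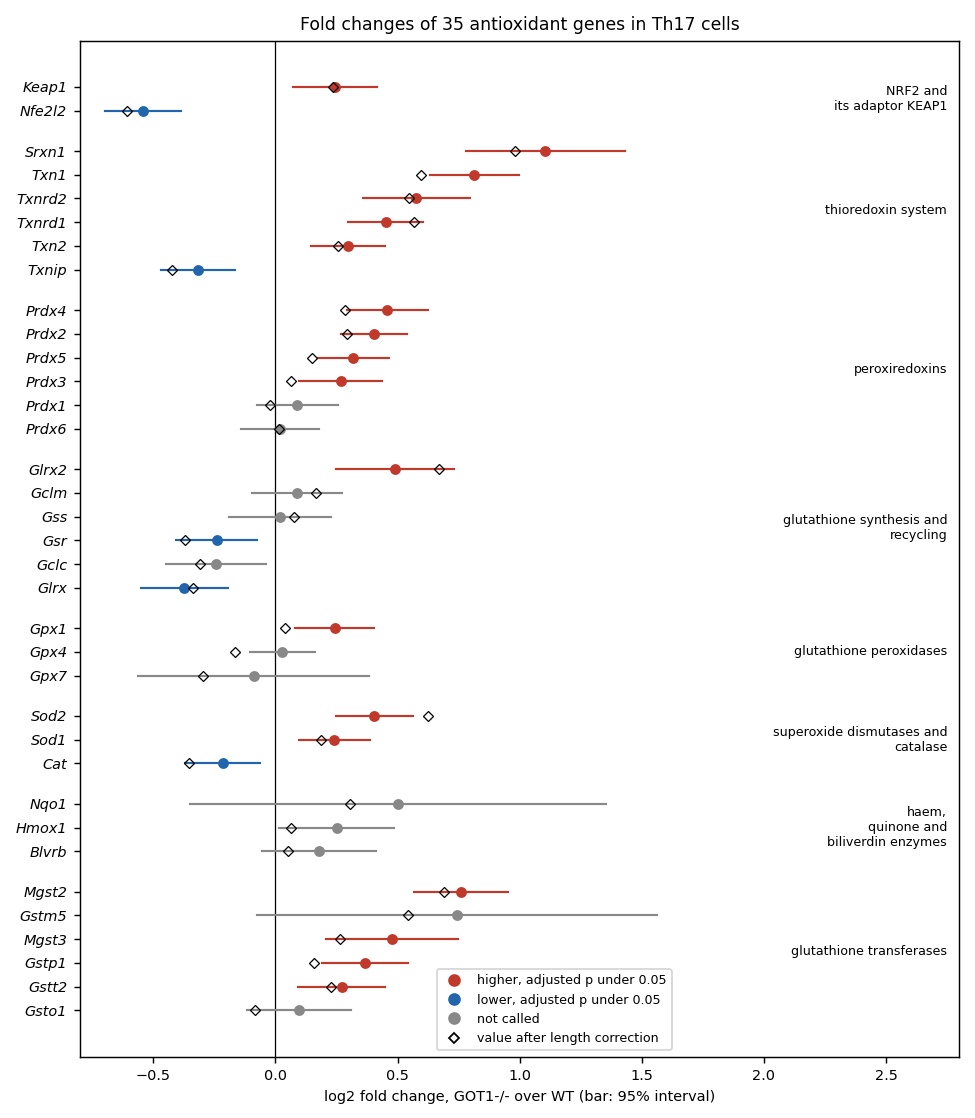
Log2 fold changes of the 35 antioxidant genes (GOT1-/- over WT, horizontal axis), grouped by role, with 95% intervals as bars and colours for the call. Open diamonds give the value after a correction for gene length. Srxn1 has the highest value at 1.11 and Nfe2l2 the lowest at -0.54.

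Gene length, as deposited, moves with these results. That length can count the exons of several transcripts together, as for Txnrd1, so the transcript expressed may be shorter. Fold changes over all genes followed the deposited gene length, with a Spearman rho of -0.397 across 11526 protein-coding genes, a description over genes that are not independent replicates. Of the 35 members, 27 were shorter than the median protein-coding gene tested (4436 bp), and 16 lay in the shortest of 4 equal bins of genes, where the median log2 fold change was 0.22. After a correction that removed each library's trend over length (the length correction), 13 members were higher and 7 lower, beside 20.9% and 19.7% of all genes tested. With GC content added to length (the joint correction) the counts were again 13 and 7, beside 21.5% and 20.2%, and the median of the members was 0.11. In all 15 alternative settings 14 members stayed called in 1 direction, 11 of them higher (Txn1, Txn2, Txnrd1, Txnrd2, Srxn1, Prdx2, Prdx4, Glrx2, Sod1, Sod2 and Mgst2) and 3 lower (Nfe2l2, Txnip and Glrx).

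**Figure D2:**
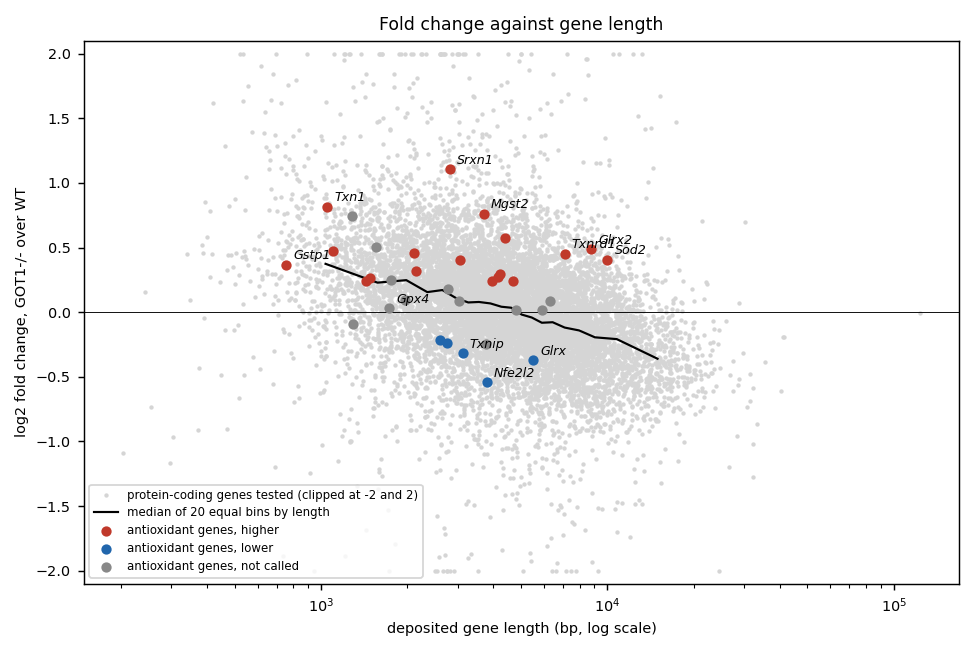
Log2 fold change (GOT1-/- over WT) against deposited gene length in bp on a log axis, with protein-coding genes in grey, clipped at -2 and 2, the median of 20 equal bins as a line, and the antioxidant genes coloured by call. Srxn1 and Txn1 lie above the line, as do the long genes Txnrd1, Glrx2 and Sod2, while Nfe2l2, Txnip and Glrx lie below it.

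NRF2 and KEAP1 transcripts differed in opposite directions. Nfe2l2 (chromosome 2, 75675513 to 75704641, minus strand) had 58.4, 56.4 and 57.0 CPM in GOT1-/- replicates 1 to 3, against 83.7, 78.9 and 87.9 CPM in WT replicates 1 to 3. All 3 GOT1-/- libraries were below all WT libraries, and the GOT1-/- libraries lay close to each other. The log2 fold change of Nfe2l2 was -0.54 (SE 0.07, adjusted p = 2.02e-05). Keap1 had 80.6, 77.7 and 68.5 CPM in GOT1-/- cells and 67.9, 63.0 and 60.6 CPM in WT cells. Its lowest GOT1-/- library was just above its highest WT library, and the log2 fold change was 0.24 (SE 0.08, adjusted p = 0.0214). Keap1 shares 510 bp of exon with the antisense gene Gm16754, which had a mean of 78.8 counts beside 1380 for Keap1. The call of Keap1 was lost after the joint correction (adjusted p = 0.194) and without GOT1-/- replicate 1 (0.0693), GOT1-/- replicate 2 (0.109), WT replicate 2 (0.0767) or WT replicate 3 (0.0938; range over 15 settings 0.00212 to 0.194).

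The genes that work with NRF2 or against it also moved in both directions. Of 7 tested genes for its relatives, small MAF partners, BACH repressors and the KEAP1 ubiquitin ligase scaffold, 3 were higher and 3 lower. Their median log2 fold change was 0.13, and 85.7% were called, beside 43.8% of all genes tested. Bach2, a repressor that binds the same DNA elements and restrains effector T cells, averaged 147 ± 24.4 CPM in GOT1-/- and 240 ± 1.39 CPM in WT cells (SD, n = 3 each; log2 fold change -0.71, adjusted p = 1.13e-05). Bach1, the repressor of Hmox1, fell by 0.54 on the log2 scale, with 19.7 ± 1.28 CPM in GOT1-/- and 28.7 ± 3.99 CPM in WT cells (adjusted p = 0.000605). Nfe2l1, the NRF2 relative that controls proteasome genes, rose, with 177 ± 13.0 CPM in GOT1-/- and 136 ± 4.43 CPM in WT cells (0.38, adjusted p = 0.000416). None of these 3 calls was lost under any alternative.

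All 6 members of the thioredoxin system were called, 5 higher and 1 lower, beside 43.8% called over all genes tested. Srxn1 encodes sulfiredoxin, which repairs peroxiredoxins that peroxide has over-oxidised. Srxn1 (chromosome 2, 152105516 to 152111376, plus strand) had 9.22, 10.2 and 10.6 CPM in GOT1-/- replicates 1 to 3, against 4.50, 5.58 and 3.69 CPM in WT replicates 1 to 3. The groups were far apart beside their spread, and the log2 fold change of 1.11 was the highest of the 35 (SE 0.16, adjusted p = 2.76e-05). Txn1, the cytosolic thioredoxin (chromosome 4, 57943373 to 57956411, minus strand), had 234, 270 and 309 CPM in GOT1-/- replicates and 153, 159 and 149 CPM in WT replicates. Replicate 3 was the highest of the GOT1-/- libraries and all 3 were above WT, with a log2 fold change of 0.82 (SE 0.09, adjusted p = 1.61e-06). At 1051 bp Txn1 is among the shortest members, and its value with length corrected was 0.60.

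Both thioredoxin reductase genes rose. They encode selenocysteine-containing flavoenzymes, Txnrd1 in the cytosol and Txnrd2 in mitochondria. Txnrd1 (chromosome 10, 82833951 to 82897712, plus strand) had 163, 173 and 162 CPM in GOT1-/- replicates 1 to 3 and 130, 123 and 112 CPM in WT replicates 1 to 3. The lowest GOT1-/- library was above every WT library (log2 fold change 0.45, SE 0.07, adjusted p = 9.93e-05). At a deposited 7086 bp, which counts all its annotated exons, Txnrd1 is longer than most genes, and its value with length corrected was 0.57. Txnrd2 had 22.5, 22.6 and 26.0 CPM in GOT1-/- cells and 15.8, 17.4 and 14.3 CPM in WT cells, again without overlap (0.58, SE 0.10, adjusted p = 0.000266). The counts of Txnrd2 are uncertain, since the use of strand in counting is not known. Txn2, the mitochondrial thioredoxin, was higher too, with 106 ± 5.62 CPM in GOT1-/- and 86.5 ± 3.13 CPM in WT cells (0.30, adjusted p = 0.00295, or 0.19 after the joint correction).

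Txnip went the other way. It encodes the thioredoxin-interacting protein, which binds and inhibits thioredoxin and limits glucose uptake, and its transcription is driven by the glucose-sensing factor MondoA. Txnip had 345, 329 and 352 CPM in GOT1-/- replicates 1 to 3, against 386, 450 and 441 CPM in WT replicates 1 to 3. WT replicate 1 was the lowest WT library and still lay above every GOT1-/- library (log2 fold change -0.32, SE 0.07, adjusted p = 0.00185). Of 6 tested genes for MondoA, its partner MLX and arrestin relatives of TXNIP, 3 were lower and 1 higher. That is 66.7% called, beside 43.8% of all genes tested. Arrdc4, a well-known MondoA target, averaged 3.38 ± 0.453 CPM in GOT1-/- and 4.87 ± 0.708 CPM in WT cells (-0.53, adjusted p = 0.0257), a call lost without GOT1-/- replicate 2 (0.119) or WT replicate 2 (0.136; range over 15 settings 0.0158 to 0.136). Arrdc3 fell by 0.50 (-0.31 after the joint correction) and Mlxip, the MondoA gene, fell by 0.27 on the log2 scale. The call of Mlxip was lost with length corrected (adjusted p = 0.250) and without GOT1-/- replicate 2 (0.0748), GOT1-/- replicate 3 (0.0636) or WT replicate 2 (0.0531; range over 15 settings 0.0011 to 0.250).

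**Figure D3:**
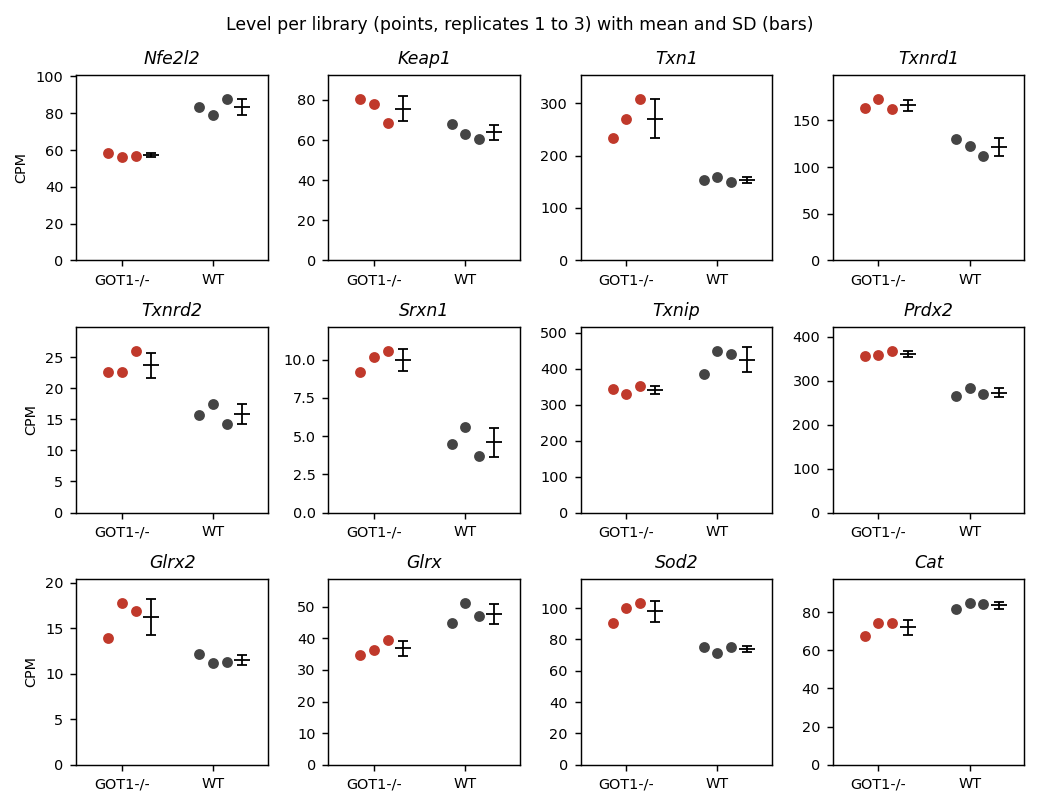
Level of 12 antioxidant genes in each library in CPM, GOT1-/- on the left and WT on the right of each panel, with replicates 1 to 3 as points and the mean with SD as bars, each axis starting at 0. In all 12 panels the genotypes do not overlap, with Nfe2l2, Txnip, Glrx and Cat lower in GOT1-/- cells.

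Among the peroxiredoxins 4 of 6 (66.7%) rose and none fell, where 22.9% of all genes tested were called higher and 21% lower. Prdx4, the endoplasmic reticulum form, had 79.0, 89.9 and 94.2 CPM in GOT1-/- replicates 1 to 3 and 64.1, 62.6 and 64.9 CPM in WT replicates 1 to 3. The WT libraries were tight and all GOT1-/- libraries were above them (log2 fold change 0.46, SE 0.08, adjusted p = 0.000184, or 0.29 with length corrected). Prdx2, a cytosolic form, had 356, 358 and 367 CPM in GOT1-/- cells and 265, 283 and 269 CPM in WT cells (0.40, SE 0.06, adjusted p = 9.28e-05). Its exons overlap those of Junb by 173 bp and of Rnaseh2a by 177 bp on the opposite strand. Junb had a mean of 17273 counts beside 6242 for Prdx2, and both neighbours were called higher (0.37 each), so the counts of Prdx2 are uncertain.

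The mitochondrial peroxiredoxins Prdx3 and Prdx5 were higher by smaller amounts. Prdx3 had 75.0, 86.3 and 88.0 CPM in GOT1-/- replicates and 68.9, 72.8 and 65.1 CPM in WT replicates (log2 fold change 0.27, adjusted p = 0.0123). The lowest GOT1-/- library lay above the highest WT library by less than the range within either group. The call was lost with length corrected (0.06, adjusted p = 0.493), after the joint correction (0.0578) and when the libraries left out were GOT1-/- replicate 2 (0.0826) or WT replicate 3 (0.0642; range over 15 settings 0.00178 to 0.493). Prdx5 averaged 220 ± 8.17 CPM in GOT1-/- and 176 ± 10.5 CPM in WT cells (0.32, adjusted p = 0.00121), and this call too was lost with length corrected (0.15, adjusted p = 0.0677) and the joint correction (0.403; range over 15 settings 0.000142 to 0.403). Prdx5 shares 409 bp of exon with Trmt112 of the opposite strand, and its counts are therefore uncertain. Prdx1, the other main cytosolic form and a textbook NRF2 target, had 198, 220 and 250 CPM in GOT1-/- replicates 1 to 3 and 209, 208 and 209 CPM in WT replicates 1 to 3. The WT libraries lay inside the GOT1-/- range, and Prdx1 was not called (0.09, 95% interval -0.08 to 0.25, adjusted p = 0.379). Its direction turned with length corrected (-0.02). Prdx6, which uses glutathione in place of thioredoxin, was not called either (0.02, interval -0.14 to 0.18), with 189 ± 15.8 CPM in GOT1-/- and 187 ± 12.2 CPM in WT cells. The sign of its value turned without GOT1-/- replicate 3 or without WT replicate 3.

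Of the 6 genes of glutathione synthesis and recycling 1 was higher, 2 were lower and 3 were not called. That is 50% called, near the 43.8% of all genes tested. Gsr, glutathione reductase, had 114, 123 and 127 CPM in GOT1-/- replicates 1 to 3 and 157, 144 and 129 CPM in WT replicates 1 to 3. The highest GOT1-/- library was only just below the lowest WT library (log2 fold change -0.24, SE 0.08, adjusted p = 0.0196). The call was lost without GOT1-/- replicate 1 (0.0595), GOT1-/- replicate 2 (0.0501), WT replicate 1 (0.111) or WT replicate 2 (0.0653), and the value was -0.37 with length corrected (adjusted p = 0.000403; range over 15 settings 0.000334 to 0.111). Glrx, the cytosolic glutaredoxin that removes glutathione from protein thiols, had 34.9, 36.2 and 39.4 CPM in GOT1-/- cells and 44.7, 51.1 and 47.1 CPM in WT cells, with no overlap (-0.37, SE 0.08, adjusted p = 0.00174). Glrx2, its mitochondrial and nuclear relative, was opposite, at 14.0, 17.7 and 16.9 CPM in GOT1-/- cells and 12.1, 11.2 and 11.2 CPM in WT cells (0.49, SE 0.11, adjusted p = 0.00231).

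The genes of glutathione synthesis were not called. Gclc encodes the catalytic and Gclm the modifier subunit of glutamate-cysteine ligase, the rate-limiting enzyme. Gclc had 24.7, 28.2 and 24.6 CPM in GOT1-/- replicates 1 to 3 and 27.0, 31.7 and 33.2 CPM in WT replicates 1 to 3. The ranges overlapped through 1 library of each genotype (log2 fold change -0.24, 95% interval -0.45 to -0.04, adjusted p = 0.0524). Gclc was called lower in 8 of 15 alternatives, among them the length correction (-0.31, adjusted p = 0.0147) and the fit with the replicate number as a block (0.0423), with a range of 0.0147 to 0.159. Gclm averaged 35.02 ± 1.32 CPM in GOT1-/- and 32.9 ± 3.03 CPM in WT cells (0.09, interval -0.10 to 0.27, adjusted p = 0.436), and was called higher only after the joint correction (0.26, adjusted p = 0.0227; range over 15 settings 0.0227 to 0.915). Gss, glutathione synthetase, averaged 32.1 ± 4.35 CPM in GOT1-/- and 31.6 ± 1.31 CPM in WT cells (0.02, interval -0.19 to 0.23). Gss shares 395 bp of exon with Acss2 of the opposite strand, and its counts are therefore uncertain, and its sign turned without GOT1-/- replicate 3 or without WT replicate 1.

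Of the 3 glutathione peroxidases, Gpx1 was the only one called (33.3%, beside 43.8% of all genes tested). This cytosolic selenoenzyme had 198, 223 and 216 CPM in GOT1-/- replicates 1 to 3 and 191, 186 and 161 CPM in WT replicates 1 to 3. The groups came close at their edges (log2 fold change 0.24, SE 0.08, adjusted p = 0.0166), and the call was lost with length corrected (0.04, adjusted p = 0.673) and without GOT1-/- replicate 2 (0.115) or WT replicate 3 (0.0998). After the joint correction its value was -0.04, and 15 settings gave adjusted p values of 0.00531 to 0.673. Gpx4, the selenoenzyme that reduces lipid peroxides and protects T cells from ferroptosis, had 231, 229 and 234 CPM in GOT1-/- cells and 221, 229 and 231 CPM in WT cells. All 6 libraries lay close together and Gpx4 was not called (0.03, 95% interval -0.11 to 0.16, adjusted p = 0.742). Gpx4 passed the test as lower with length corrected (-0.16, adjusted p = 0.0363) and the joint correction (-0.29, adjusted p = 0.0011; range over 15 settings 0.0011 to 0.996). Gpx7, of the endoplasmic reticulum, stood at 2.19 ± 0.0951 CPM in GOT1-/- and 2.31 ± 0.351 CPM in WT cells and was not called, with an interval of -0.56 to 0.38.

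Superoxide dismutases and catalase, which act on superoxide and on hydrogen peroxide, were all called, where 43.8% of all genes tested were called. Sod2, the manganese enzyme of mitochondria, had 90.6, 100.1 and 103 CPM in GOT1-/- replicates 1 to 3 and 75.3, 71.5 and 75.1 CPM in WT replicates 1 to 3. The groups were well apart (log2 fold change 0.41, SE 0.07, adjusted p = 0.00032), and for this gene of 10008 bp the value was 0.63 with length corrected and 0.70 after the joint correction. Sod1, the copper and zinc enzyme of the cytosol, had 291, 308 and 329 CPM in GOT1-/- cells and 272, 262 and 250 CPM in WT cells, with no overlap (0.24, SE 0.07, adjusted p = 0.00932). Cat, catalase of peroxisomes, had 67.6, 74.3 and 74.3 CPM in GOT1-/- cells and 81.6, 84.7 and 84.5 CPM in WT cells. All GOT1-/- libraries were lower (-0.22, SE 0.07, adjusted p = 0.023), but the call was lost without GOT1-/- replicate 1 (0.0809) or WT replicate 2 (0.0817), and the value was -0.35 with length corrected (adjusted p = 0.000343; range over 15 settings 0.000343 to 0.0817).

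Ccs, the chaperone that loads copper into SOD1, also rose. It averaged 72.6 ± 5.11 CPM in GOT1-/- and 32.6 ± 1.84 CPM in WT cells (SD, n = 3 each; log2 fold change 1.155, adjusted p = 3.07e-08, or 0.94 with length corrected). In its list of other peroxide, superoxide and methionine sulfoxide repair genes 4 of 12 tested were higher and 3 lower, with a median of 0.14. The list had 58.3% called, beside 43.8% of all genes tested. Park7, which encodes the oxidation-sensitive protein DJ-1, averaged 237 ± 16.8 CPM in GOT1-/- and 167 ± 5.97 CPM in WT cells (0.50, adjusted p = 2.81e-05). Its value was 0.32 after the joint correction. Sesn3, a sestrin gene driven by FOXO factors, fell, with 376 ± 50.4 CPM in GOT1-/- and 645 ± 26.5 CPM in WT cells (-0.78, adjusted p = 2.01e-06, or -0.45 with length corrected).

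The haem, quinone and biliverdin enzymes, which hold the most cited NRF2 targets, were not called by edgeR, DESeq2 or limma-voom. At an unadjusted p under 0.05 by edgeR 1 of the 3, Hmox1, was higher. Hmox1, haem oxygenase 1, had 16.1, 15.1 and 16.5 CPM in GOT1-/- replicates 1 to 3 and 15.3, 12.2 and 12.5 CPM in WT replicates 1 to 3. WT replicate 1 lay inside the GOT1-/- range, and the log2 fold change was 0.25 (95% interval 0.02 to 0.49, adjusted p = 0.0778; 0.0265 without WT replicate 1; range over 15 settings 0.0265 to 0.878). Nqo1, NAD(P)H quinone dehydrogenase 1, was near the limit of detection, with 10, 18 and 15 counts in GOT1-/- libraries and 8, 13 and 8 in WT libraries. Nqo1 was tested and not called (0.50, interval -0.35 to 1.35), and at this depth a change within that interval cannot be told from none. Blvrb, biliverdin reductase B, averaged 13.7 ± 0.901 CPM in GOT1-/- and 12.1 ± 0.98 CPM in WT cells (0.18, interval -0.06 to 0.41).

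Among the glutathione transferases 4 of 6 (66.7%) rose and none fell. Over all genes tested 22.9% were called higher and 21% lower. Mgst2, a microsomal enzyme that also makes leukotriene C4, had 37.2, 34.96 and 34.3 CPM in GOT1-/- replicates 1 to 3 and 20.5, 19.5 and 23.03 CPM in WT replicates 1 to 3. The groups were separated by more than the whole range within either (log2 fold change 0.76, SE 0.09, adjusted p = 5.51e-06), and the value stayed between 0.69 and 0.82 in all alternatives. Mgst3, a related microsomal enzyme, had 11.0, 11.8 and 13.2 CPM in GOT1-/- cells and 9.91, 7.98 and 7.92 CPM in WT cells (0.48, adjusted p = 0.00614). This short gene of 1097 bp was not called with length corrected (0.26, adjusted p = 0.0922) or the joint correction (0.0834; range over 15 settings 0.0017 to 0.0922). Gstp1, the pi-class cytosolic enzyme and at 757 bp the shortest member, had 85.5, 93.5 and 105 CPM in GOT1-/- cells and 75.3, 76.3 and 68.2 CPM in WT cells (0.37, adjusted p = 0.00184). It lost its call with length corrected (0.16, adjusted p = 0.0807) and the joint correction (0.287; range over 15 settings 7.99e-05 to 0.287). The similar gene Gstp3 averaged 69.5 CPM in GOT1-/- and 70.7 CPM in WT cells and was not called, and reads may be divided between Gstp copies. Gstt2, of the theta class, averaged 63.7 ± 1.5 CPM in GOT1-/- and 52.7 ± 5.59 CPM in WT cells (0.27, adjusted p = 0.0145), a call lost without WT replicate 3 (0.0838; range over 15 settings 0.00914 to 0.0838). Gsto1 (0.10) and Gstm5 (0.74, with 5 to 22 counts a library) were not called, and the sign of Gsto1 turned with length corrected (-0.08).

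Levels of different genes were compared as CPM per kb of deposited gene length, which may exceed the length of the transcript expressed. Txn1 had the highest level of the 35 in both genotypes, at 258 CPM per kb in GOT1-/- and 146 CPM per kb in WT cells. Gpx1, Gpx4 and Gstp1 followed in GOT1-/- cells at 147, 134 and 125 CPM per kb, whereas in WT cells Txnip stood second at 136 CPM per kb, a place that was the sixth in GOT1-/- cells at 109 CPM per kb. In WT cells the gap between Txnip and Gpx4 (132 CPM per kb) is smaller than the spread of Txnip over WT libraries. Nqo1 had the lowest level in both genotypes, at 0.463 CPM per kb in GOT1-/- and 0.322 CPM per kb in WT cells. Srxn1 was also among the lowest, at 3.54 CPM per kb in GOT1-/- and 1.63 CPM per kb in WT cells, so the member with the highest fold change is a scarce transcript.

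**Figure D4:**
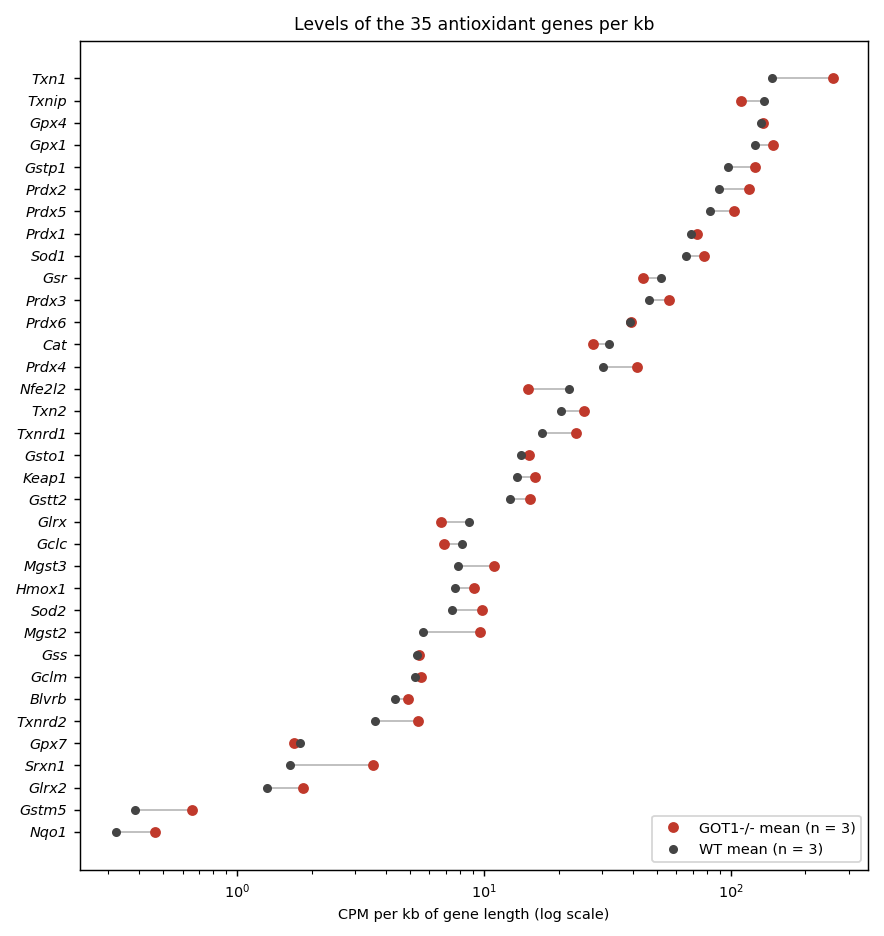
Mean level of each antioxidant gene in CPM per kb of deposited gene length on a log axis, GOT1-/- in red and WT in dark grey (n = 3 each), ordered by the WT level. Txn1 is at the top and Nqo1 at the bottom in both genotypes, with grey lines joining the pair of means.

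The 6 members classed here as mitochondrial forms (Txn2, Txnrd2, Prdx3, Prdx5, Glrx2 and Sod2) were all called higher. Their median log2 fold change was 0.36, and 22.9% of all genes tested were called higher. Of the other 29 members 12 were higher and 5 lower, with a median of 0.24. Some of those 29 may also have products in mitochondria, among them Gpx1 and Sod1 (called higher), Gsr (lower) and Gpx4 (not called). After the length correction 4 of the 6 were called higher, with a median of 0.40, as were 4 after the joint correction, with a median of 0.33. The counts are a description, since the members were chosen with results known. The 4 members that encode selenoproteins, Txnrd1, Txnrd2, Gpx1 and Gpx4, comprised 3 called higher and 1 not called. Over all genes tested 22.9% were called higher. In the list of other selenoprotein genes and the machinery for selenocysteine 7 of 21 tested were higher and 4 lower, with a median of 0.21. Of that list 52.4% were called, beside 43.8% of all genes tested. Selenop, the secreted selenium carrier, fell in GOT1-/- cells, to 52.1 ± 3.21 CPM against 105 ± 5.53 CPM in WT cells (-1.002, adjusted p = 6.24e-08). Selenoh rose by 0.48 and Scly, the enzyme that recovers selenium from selenocysteine, by 0.43, with a value of 0.26 for Selenoh with length corrected.

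Other NRF2 targets and glutathione genes, from lists chosen with earlier results known, changed in part. Among 20 tested NRF2 targets outside the members 7 were higher, 1 lower and 12 not called. That is 40% called, beside 43.8% of all genes tested. The median log2 fold change was 0.11, with values from -0.99 to 1.00, and the lower gene is not among those named. Slc3a2, the heavy chain of amino acid exchangers that include the cystine carrier, averaged 288 ± 22.6 CPM in GOT1-/- and 186 ± 10.8 CPM in WT cells (0.63, adjusted p = 4.73e-06). Ftl1, ferritin light chain, averaged 336 ± 49.9 CPM in GOT1-/- and 226 ± 4.27 CPM in WT cells (0.57, adjusted p = 5.62e-05, or 0.36 with length corrected). Ferritin light chain has many near-identical copies in the mouse genome, so its counts are uncertain. The ferritin heavy chain gene Fth1 did not pass the test (0.00, adjusted p = 0.997). Slc7a11, which encodes the cystine carrier itself, was low at 2.17 ± 0.438 CPM in GOT1-/- and 1.07 ± 0.0983 CPM in WT cells and was called higher (1.00, adjusted p = 0.00724).

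Of 26 tested genes of glutathione metabolism outside the members 8 were higher, 4 lower and 14 not called, with a median of 0.06. That made 46.2% called, near the 43.8% of all genes tested. Values ran from -0.99 to 1.06, and the lower genes are not among those named. Some genes, such as Slc7a11, stand in both this list and the NRF2 list. Ggt7, a gamma-glutamyltransferase relative, rose, with 36.4 ± 3.06 CPM in GOT1-/- and 21.5 ± 0.612 CPM in WT cells (log2 fold change 0.76, adjusted p = 5.12e-06). Chac1, which degrades cytosolic glutathione and is a target of ATF4, averaged 8.40 ± 1.03 CPM in GOT1-/- and 4.05 ± 0.707 CPM in WT cells (1.06, adjusted p = 7.3e-05). Gstm4 averaged 14.0 ± 2.74 CPM in GOT1-/- and 9.14 ± 0.468 CPM in WT cells (0.61, adjusted p = 0.00166, or 0.38 after the joint correction). Of 13 tested genes that supply NADPH to both thiol systems 5 were higher and none lower, with a median of 0.21. The share called was 38.5%, beside 43.8% of all genes tested (22.9% higher and 21% lower). Mthfd2, the mitochondrial folate enzyme, averaged 154 ± 18.7 CPM in GOT1-/- and 98.6 ± 1.56 CPM in WT cells (0.64, adjusted p = 1.07e-05). Mthfd1 (0.50) and Pgd (0.49), which encodes phosphogluconate dehydrogenase of the pentose phosphate pathway and also stands in the NRF2 list, rose as well, while G6pdx was not called (0.18, adjusted p = 0.0559).

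Other genes with a thioredoxin or glutaredoxin fold, many of which act in the endoplasmic reticulum, were higher for 8 of 19 and lower for 3, with a median of 0.15. In this list 57.9% were called, beside 43.8% of all genes tested. Pdia6, a disulfide isomerase, averaged 304 ± 32.2 CPM in GOT1-/- and 182 ± 10.5 CPM in WT cells (log2 fold change 0.74, adjusted p = 2.14e-06). Pdia4 (0.54) rose too, and so did Glrx5, the mitochondrial glutaredoxin of iron-sulfur cluster assembly, with 58.7 ± 5.51 CPM in GOT1-/- and 35.8 ± 4.88 CPM in WT cells (0.71, adjusted p = 2.75e-05).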

How the data were processed

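The authors deposited raw read counts for each gene and a gene length in bp, for 3 GOT1-/- and 3 WT libraries. Poly-A RNA was selected from 1 ug, per the labels' protocols. STAR and the mouse build GRCm38 were used, per the submitters' processing notes. The aligner's version, how reads were assigned to genes, whether strand was used and which annotation served were not given in the sources used here, so reads of overlapping genes on opposite strands cannot be told apart.

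Counts were tested with edgeR 4.0.16 in R 4.3.3 (TMM, filterByExpr with a minimum count of 10 and a minimum total of 15, quasi-likelihood F-test, genotype as the only term, two-sided, Benjamini-Hochberg adjustment over 12873 genes). The SE is the absolute log2 fold change divided by the square root of F. Libraries of a genotype were no duplicates (chi-square divided by degrees of freedom 3.76 to 13.7 for each pair), so all 6 were kept. Symbols of 27 genes turned into dates were restored from gene IDs, and where a symbol repeated it stayed with the copy with the most reads (103 other copies). The analysis was tested on simulated data. Alternatives were DESeq2 1.42.0, voom in limma 3.58.1, other scalings, filters and thresholds, a replicate block, corrections for length and for length and GC content (natural splines with 5 degrees of freedom, robust regression, GC from GENCODE M21 transcripts), and each library left out in turn.

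The members and lists were chosen with earlier results of these data known. Genes named were Got1, all members and, from each list, up to 3 called genes of the smallest adjusted p whose mean reached 2 CPM and whose genotypes did not overlap. Fth1, Slc7a11, G6pdx, Cybb and single marker genes were named after their values were seen. Some genes of the lists are not reported here.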

Additional observations from a re-analysis of the deposited data

How the results depend on the processing

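All 23 member calls were the same in direction under DESeq2, limma-voom, the other scalings and both other filters. At an adjusted p under 0.01, 14 members were higher and 3 lower, and 17 genes of the other lists were lower in place of 26. With libraries left out in turn, 14 to 19 members were higher and 3 to 5 lower, while over all genes 2267 to 2944 were higher and 2159 to 2774 lower. Signs turned, and the cause was not tested, for Prdx1 (-0.0231), Gpx4 (-0.16) and Gsto1 (-0.0831) with length corrected, and for Gpx1 (-0.0443), Gpx4 (-0.29) and Gsto1 (-0.10) after the joint correction. With libraries left out in turn the log2 fold change ranged from -0.0016 to 0.17 for Prdx1, from -0.04996 to 0.0630 for Prdx6, from -0.0731 to 0.11 for Gss, from -0.0184 to 0.15 for Gsto1 and from -0.20 to 0.0146 for Gpx7. The replicate numbers gave no sign of pairing: deviations of same-numbered libraries correlated at 0.059, -0.0258 and 0.0332, and GOT1-/- replicates 2 and 3 and WT replicate 2 did not correlate best with their own number. With 3 libraries in each genotype these correlations cannot decide whether same-numbered libraries were prepared together. With the replicate number as a block, 18 members were higher and 6 lower, and over all genes 3005 were higher and 2787 lower. Depth limits Nqo1 and Gstm5, which the stricter filter removed.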

Other observations

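The NADPH oxidase of phagocytes, which makes superoxide on purpose, is also assembled in part by T cells. Of its 7 tested genes in a list chosen with earlier results known, 2 were higher, 2 lower and 3 not called in GOT1-/- cells. Thus 57.1% were called, beside 43.8% of all genes tested. Cyba, the membrane subunit p22phox, averaged 202 ± 12.2 CPM in GOT1-/- and 122 ± 8.03 CPM in WT cells (SD, n = 3 each; log2 fold change 0.73, adjusted p = 1e-06 by edgeR, or 0.41 after the joint correction). Ncf1, the cytosolic organiser, averaged 85.5 ± 3.72 CPM in GOT1-/- and 112 ± 6.15 CPM in WT cells (-0.38, adjusted p = 0.000414). Rac2 fell by 0.17 on the log2 scale (adjusted p = 0.0366), a call lost without GOT1-/- replicate 1 (0.117), GOT1-/- replicate 2 (0.0682), WT replicate 1 (0.101) or WT replicate 2 (0.131; range over 15 settings 8.86e-05 to 0.131). Its value was -0.28 with length corrected. The catalytic subunit gene Cybb was low, at 1.73 ± 0.138 CPM in GOT1-/- and 0.597 ± 0.326 CPM in WT cells (1.57, adjusted p = 0.0018). Of 10 macrophage, monocyte and neutrophil markers 9 were tested, of which 6 were higher and 1 lower. All 10 summed to 31.8 to 38.2 CPM in GOT1-/- and 26.8 to 28.6 CPM in WT libraries. That sum includes Cd68, which was lower, at 11.1 ± 1.18 CPM in GOT1-/- and 19.6 ± 2.08 CPM in WT cells (log2 fold change -0.83). Lyz2, at 12.6 ± 1.69 CPM in GOT1-/- and 4.02 ± 0.77 CPM in WT cells (1.63), and Cd14, at 3.58 ± 0.834 CPM in GOT1-/- and 1.27 ± 0.737 CPM in WT cells (1.47), were called higher, beside 1.57 for Cybb. S100a8 had 27, 28 and 17 counts in GOT1-/- libraries and 2, 1 and 3 in WT libraries, and S100a9 had 37, 49 and 21 counts in GOT1-/- libraries and 1, 0 and 2 in WT libraries. The part of these cells in the level of Cybb was not tested.

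Of 12 genes of haem synthesis, export and breakdown beside Hmox1, 4 were higher and 3 lower. Calls covered 58.3% of them, beside 43.8% of all genes tested. Alad, an early enzyme of haem synthesis, averaged 32.1 ± 1.25 CPM in GOT1-/- and 23.6 ± 0.599 CPM in WT cells (log2 fold change 0.44, adjusted p = 0.000431), a call lost after the joint correction (0.0599; range over 15 settings 6.76e-05 to 0.0599). Cpox, a late enzyme in mitochondria, averaged 93.7 ± 5.88 CPM in GOT1-/- and 116 ± 0.944 CPM in WT cells (-0.30, adjusted p = 0.00223, or -0.19 after the joint correction).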
